A study of Mus musculus with 6 samples.

Results

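Matrix metalloproteases, their tissue inhibitors and the urokinase system were examined in F4/80+ cells, named for a surface protein of mouse macrophages, from liver tumours of mice. The members are Mmp8, Mmp9, Mmp12, Mmp13, Mmp14, Mmp19, Timp1, Timp2, Plau and Plaur. The genes were chosen by symbol, and all 10 were found among the 55401 rows of the gene table. Sms-OE cells (3 libraries) came from tumours grown from a line made with lentivirus to overexpress Sms, whose product, spermine synthase, forms the polyamine spermine. They were set against cells from tumours labelled WT Control (3 libraries). Both kinds of tumour were grown from Hepa 1-6, a mouse hepatoma line, injected into the right lobe of the liver, and were taken 14 days later. The submitters' text ties the overexpression to the injected line, and gives as the question how SMS acts on the surroundings of the tumour. It names no mouse strain, sex or age and no control vector, and does not say whether each library came from its own mouse. The p-values therefore measure only the spread between these samples.

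Matrix metalloproteases are zinc-dependent enzymes that cut collagens, elastin and other proteins of the extracellular matrix. They are made as inactive precursors, and TIMP proteins bind and block the active forms. The urokinase system is a second route to matrix breakdown: the protease urokinase, bound to its receptor on the cell surface, turns plasminogen into plasmin, which cuts fibrin and also activates some metalloprotease precursors. Tumour macrophages and neutrophils are known sources of several of these enzymes.

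The libraries held 49833764 to 51123047 estimated counts in Sms-OE and 51583985 to 58154006 in controls, and the members held 200 to 96537 counts in a library. Sms itself was at 33.0, 33.2 and 33.2 CPM in Sms-OE and 26.0, 28.3 and 26.3 CPM in controls (CPM, the count scaled to library size and TMM factors). All 12 macrophage markers on the list used were detected, with Csf1r at 750.2 to 837.6 CPM in Sms-OE and 661.2 to 755.2 CPM in controls. Of these markers 1 was called higher (Cd14) and 4 lower (Cd68, C1qa, C1qb and C1qc). Without both Sms-OE libraries rich in haemoglobin RNA, 1 was lower. All 16 neutrophil markers were also detected, and their summed level was 5113 to 7330 CPM in Sms-OE and 5941 to 8638 CPM in controls, so the isolated cells carried neutrophil RNA in both groups. Sms-OE replicates 2 and 3 stood apart by haemoglobin RNA, at 0.485% and 0.512% of counts, against 0.0225% in Sms-OE replicate 1 and 0.00441% to 0.0172% in controls. Mitochondrial RNA separated the groups, at 3.12%, 2.42% and 2.15% of counts in Sms-OE and 4.99%, 5.78% and 7.13% in controls. With mitochondrial and haemoglobin rows removed, 3 members were higher and 2 lower, as with them; the part of RNA or cell quality in the differences was not tested. In bulk RNA, fewer cells of a type and less RNA per cell cannot be told apart.

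Of the 10 members, 3 were higher in Sms-OE (Mmp9, Mmp14 and Plaur), 2 were lower (Mmp12 and Plau), and 5 did not pass the test (Mmp8, Mmp13, Mmp19, Timp1 and Timp2). The test was edgeR's quasi-likelihood test with Benjamini-Hochberg adjustment over all 18277 genes tested and a threshold of 0.05. By the same rule 26.9% of all tested genes were called, 12.5% higher and 14.3% lower, so a call in itself was common in this comparison. The groups of libraries did not overlap for the same 5 members. Of all tested genes 44.1% did not overlap, 20.8% higher and 23.3% lower. The median log2 fold change of the members was 0.04, beside -0.001 for all tested genes, and the median of its size without sign was 0.42, beside 0.38. TMM scaling gave 2293 genes higher and 2615 lower, and scaling to library size without TMM factors gave 2521 and 1788. All 10 members passed the filter on low counts.

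**Figure D1:**
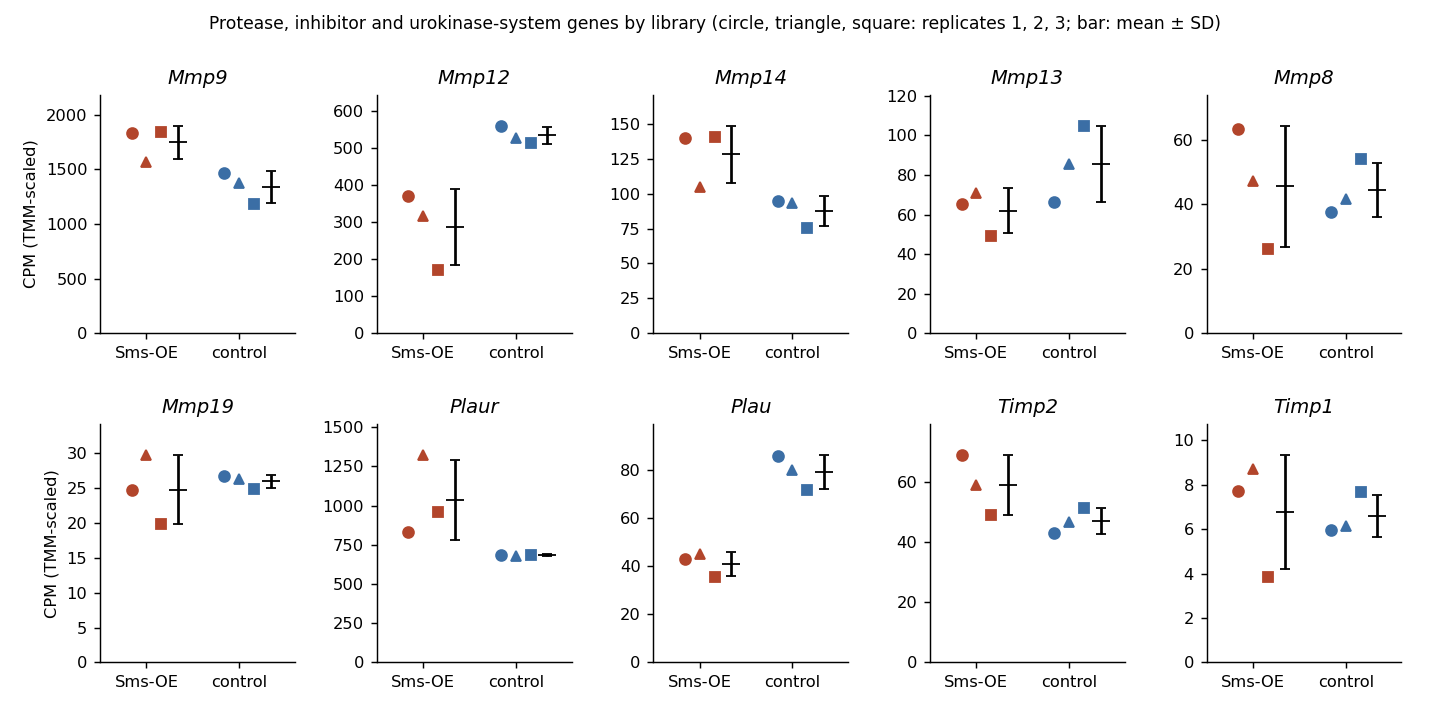
Level of each gene in CPM scaled by TMM factors (vertical axis, from 0) in the 3 Sms-OE and 3 control libraries. Circles, triangles and squares are replicates 1, 2 and 3 and the bars are mean ± SD; the groups are separate for Mmp9, Mmp12, Mmp14, Plaur and Plau and overlap for the other 5.

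The urokinase receptor and its ligand moved in opposite directions. Plaur, the receptor that holds urokinase at the cell surface, was at 833.3, 1322 and 956.8 CPM in Sms-OE, against 687.1, 681.0 and 686.5 CPM in controls. Every Sms-OE library lay above every control library, with Sms-OE replicate 2 the highest, and the controls were close to each other (1037 ± 254 CPM in Sms-OE and 684.8 ± 3.38 CPM in controls, SD, n = 3 each). Plaur was 1.52-fold higher, a log2 fold change of 0.60 ± 0.15 (SE, adjusted p = 0.0172 by edgeR). That call was lost without control replicate 1, 2 or 3 (adjusted p = 0.0512, 0.0734 and 0.0590). It was also lost without both haemoglobin-rich libraries, where the log2 fold change was 0.28 (adjusted p = 0.175).

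Plau, the gene of urokinase itself, was at 42.9, 45.0 and 35.5 CPM in Sms-OE, against 86.0, 80.0 and 71.8 CPM in controls. The groups were well apart, and the highest Sms-OE library was below the lowest control. Plau was 1.93-fold lower (log2 -0.95 ± 0.11 SE, adjusted p = 0.000514 by edgeR), the smallest p among the members. It was the member called under all 19 alternative fits, with log2 fold changes of -1.03 to -0.79. Per kb of transcript, the ratio of receptor RNA to urokinase RNA was 30.22, 45.71 and 41.97 in Sms-OE and 12.4, 13.2 and 14.9 in controls. The separation of this ratio follows from the separate groups of Plaur and Plau and is no further result.

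Promoter sequences were available for 7 of the 10 members (RefSeq, GRCm38.p6); Mmp9, Mmp19 and Plau had no entry. Those of Plaur, Mmp13 and Mmp12 are shown because they hold the letters of AP-1, the factor through which many metalloprotease genes are induced. The 120 bases before each start site are given on the plus strand, 5′ to 3′, with the AP-1 letters TGANTCA in capitals; these letters read the same on both strands.
Plaur, chr7:24462363-24462482: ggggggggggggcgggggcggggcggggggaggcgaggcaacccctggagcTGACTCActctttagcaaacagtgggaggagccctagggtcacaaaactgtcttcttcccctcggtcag
Mmp13, chr9:7272394-7272513: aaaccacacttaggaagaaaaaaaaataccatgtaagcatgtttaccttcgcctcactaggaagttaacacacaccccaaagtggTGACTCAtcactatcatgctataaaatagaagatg
Mmp12, inner start site, chr9:7347254-7347373: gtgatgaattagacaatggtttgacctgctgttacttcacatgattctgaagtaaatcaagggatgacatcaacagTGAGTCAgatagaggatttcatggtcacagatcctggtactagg
The match begins 69 bases before the start of Plaur, 35 before that of Mmp13 and 44 before the inner start of Mmp12. The outer start of Mmp12 and the promoters of Mmp8, Mmp14, Timp1 and Timp2 held no such match in the 250 bases before the start. Of 32851 promoter windows of the same length, 6.75% held one. The letters AGGAAG, a PEA3/ETS motif searched on both strands, were found 2 times each before Mmp13 and Timp1 and once before Plaur, Mmp8, Mmp14 and the outer start of Mmp12, and in 29.5% of all windows. A match is a stretch of letters and says nothing of whether a factor was bound.

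Mmp9, the secreted gelatinase that cuts denatured collagen and type IV collagen, was the metalloprotease with the highest level per kb of transcript. It was at 1831, 1571 and 1840 CPM in Sms-OE, against 1466, 1373 and 1180 CPM in controls. All Sms-OE libraries lay above all controls, but the gap between Sms-OE replicate 2 and control replicate 1 was small. Mmp9 was 1.30-fold higher (log2 0.38 ± 0.12 SE, adjusted p = 0.0368 by edgeR). The call was lost without Sms-OE replicate 1 or 3 and without control replicate 2 or 3 (adjusted p = 0.0877, 0.114, 0.117 and 0.144). Without both haemoglobin-rich libraries the adjusted p was 0.116.

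Mmp14, a membrane-bound metalloprotease that cuts fibrillar collagen and activates the precursor of Mmp2, was at 139.7, 104.5 and 140.4 CPM in Sms-OE, against 94.9, 93.1 and 75.2 CPM in controls. Sms-OE replicate 2 was again the lowest of its group and stood not far above control replicate 1. The gene was 1.46-fold higher (log2 0.55 ± 0.13 SE, adjusted p = 0.0133 by edgeR). The call was lost on removal of Sms-OE replicate 3 or control replicate 3 (adjusted p = 0.0571 and 0.0611). Fibroblasts also make Mmp14: of 12 fibroblast and stellate cell markers tested, 3 were higher and none lower (1 higher without Sms-OE replicate 2, without control replicate 2 or without both haemoglobin-rich libraries), and the summed level of the 13 listed was 229.4 to 262.8 CPM in Sms-OE and 168.2 to 190.1 CPM in controls. Dcn and Thy1 held the most counts among them. The markers called higher were Dcn, Col1a2 and Des, while Thy1 did not pass (99.1 ± 19.1 CPM in Sms-OE and 86.1 ± 14.3 CPM in controls, SD, n = 3). Col1a1 and Pdgfrb did not pass either. They were at 7.68 to 12.7 and 1.33 to 2.31 CPM in Sms-OE and at 7.32 to 8.28 and 0.835 to 1.45 CPM in controls. Lrat was at 0 in all Sms-OE libraries. The part of fibroblasts in the Mmp14 difference was not tested.

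Mmp12, the macrophage elastase, was at 371.5, 317.9 and 171.3 CPM in Sms-OE, against 560.7, 527.8 and 515.0 CPM in controls. Every Sms-OE library was below every control, and Sms-OE replicate 3 was far below the other two. Mmp12 was 1.86-fold lower (log2 -0.90 ± 0.25 SE, adjusted p = 0.0298 by edgeR). The call was lost without Sms-OE replicate 2 and without control replicate 1, 2 or 3 (adjusted p = 0.0580, 0.0989, 0.0618 and 0.0651), and with no filter on low counts (adjusted p = 0.0792). Without both haemoglobin-rich libraries the log2 fold change was -0.53 (adjusted p = 0.0397). The per-kb ratio of Mmp12 to Mmp9 was 0.179, 0.178 and 0.0820 in Sms-OE and 0.337, 0.338 and 0.384 in controls. Its separation likewise follows from the separate groups of Mmp12 and Mmp9. Mmp12 made up 6.64% to 13.02% of the summed per-kb level of the 6 metalloproteases in Sms-OE, against 21.8% to 23.3% in controls. Mmp9 made up 72.9%, 73.0% and 80.9% in Sms-OE, against 65.8%, 64.4% and 60.7% in controls. These shares follow largely from the levels of Mmp9 and Mmp12 already given and are no further result.

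Some markers of other cells were also lower beside Plau and Mmp12. Of 10 dendritic cell markers 4 were lower (Clec9a, Cd209a, Ccr7 and Batf3) and 1 higher, and their summed level was 87.1 to 109.2 CPM in Sms-OE and 150.2 to 173.5 CPM in controls; without both haemoglobin-rich libraries 2 were lower and none higher. With all 6 libraries the dendritic marker called higher was Siglech, and Flt3, Zbtb46, Xcr1, Fscn1 and Itgae did not pass. Of 11 endothelial cell markers 6 were lower (Kdr, Tek, Stab2, Clec4g, Eng and Egfl7) and 1 higher (Cdh5). Of the 6, Tek passed the filter on low counts only through the controls (11, 33 and 8 counts in Sms-OE, against 113, 87 and 49). The summed level of the 11 overlapped between groups, at 141.4 to 182.4 CPM in Sms-OE and 181.4 to 203.9 CPM in controls. Pecam1, with the most counts among the 11, did not pass (103.6 ± 13.9 CPM in Sms-OE and 104.6 ± 5.12 CPM in controls, SD, n = 3). Without Sms-OE replicate 3, control replicate 1 or control replicate 2, 4 of the 11 were lower. No marker of either list was at 0 in a library. Their part in the Plau and Mmp12 differences was not tested.

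Mmp13, the main interstitial collagenase of rodents, was at 65.3, 71.1 and 49.2 CPM in Sms-OE, against 66.3, 85.4 and 104.9 CPM in controls. The groups overlapped, since control replicate 1 lay below Sms-OE replicate 2. Its log2 fold change of -0.47 ± 0.18 (SE) did not pass (adjusted p = 0.0822 by edgeR). It did pass with the DESeq2 Wald test (adjusted p = 0.0483), with limma-voom (adjusted p = 0.0494), as it did when control replicate 1 was left out (adjusted p = 0.0247).

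Mmp8, the collagenase stored in neutrophil granules, was at 63.4, 47.2 and 26.1 CPM in Sms-OE, against 37.7, 41.6 and 53.9 CPM in controls. The Sms-OE libraries covered the whole control range and beyond it on both sides, and the log2 fold change was 0.04 ± 0.30 (SE, adjusted p = 0.944 by edgeR). The 9 pairwise log2 differences between an Sms-OE and a control library ran from -1.05 to 0.75, a spread far wider than the difference of the group means. Among other neutrophil granule genes, Ltf, Ngp and Camp were lowest in Sms-OE replicate 3, while Elane, Mpo and Prtn3 in that library lay above every control. Ltf, the gene of lactoferrin, was at 98.4, 106.0 and 43.0 CPM in Sms-OE, against 113.7, 106.4 and 96.1 CPM in controls, and Ngp was at 102.5, 113.3 and 37.7 CPM in Sms-OE, against 121.0, 110.2 and 115.9 CPM in controls. Of the 16 neutrophil markers, 4 were called higher (Elane, Mpo, Prtn3 and Mmp25) and none lower, and without control replicate 2 only 1 was higher. With limma-voom 1 was called lower, as was 1 without Sms-OE replicate 2. The list went both ways, with a median log2 fold change of -0.10. Among the 12 that did not pass, S100a8 and S100a9 lay below every control in each Sms-OE library, and Cxcr2 and Csf3r above. S100a8 was at 570.1 ± 207 CPM in Sms-OE and 911.1 ± 248 CPM in controls (SD, n = 3). The part of neutrophil RNA in the Mmp8 and Mmp9 values was not tested.

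Mmp19, a secreted metalloprotease that cuts basement membrane proteins, was at 24.8, 29.8 and 19.9 CPM in Sms-OE, against 26.7, 26.3 and 24.9 CPM in controls. The Sms-OE libraries lay on both sides of the controls (log2 -0.07 ± 0.14 SE, adjusted p = 0.773 by edgeR). The pairwise log2 differences ran from -0.42 to 0.26.

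Neither inhibitor passed the test. Timp2, which blocks metalloproteases and also takes part in activating the Mmp2 precursor on Mmp14, was at 69.0, 58.9 and 49.2 CPM in Sms-OE, against 43.0, 46.6 and 51.4 CPM in controls. Only control replicate 3 reached into the Sms-OE range (log2 0.33 ± 0.13 SE, adjusted p = 0.0828 by edgeR). The threshold was passed under 4 of the 19 alternatives, among them scaling to library size (adjusted p = 0.0491) and without Sms-OE replicate 3 (adjusted p = 0.0330). Timp1, a secreted inhibitor that is often induced in inflamed tissue, was low, at 7.72, 8.71 and 3.86 CPM in Sms-OE, against 5.98, 6.12 and 7.67 CPM in controls. Its groups overlapped (log2 0.04 ± 0.28 SE, adjusted p = 0.936 by edgeR), with pairwise log2 differences from -0.99 to 0.54.

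**Figure D2:**
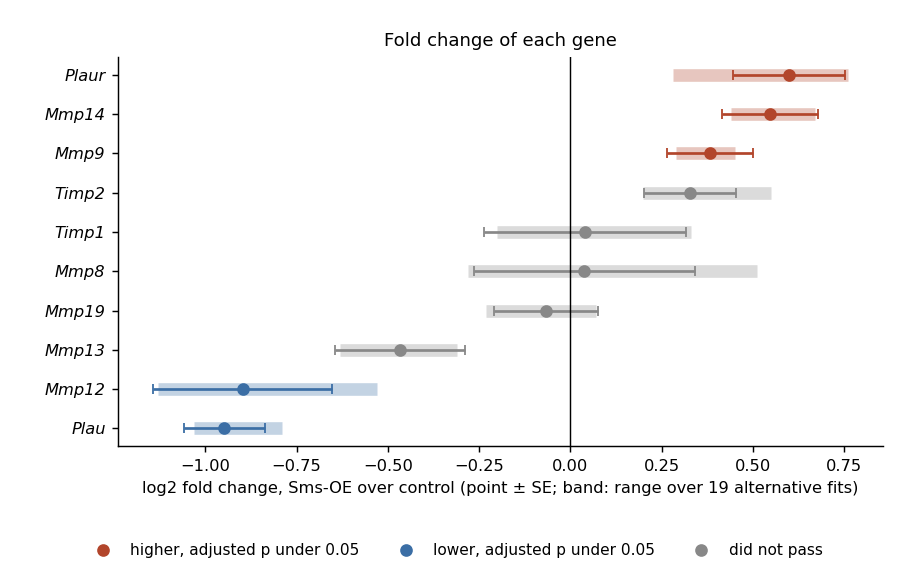
Log2 fold change of each gene, Sms-OE over control, with its SE (points and bars) and the range over 19 alternative fits (bands). Plau and Mmp12 lie lowest, and the bands of Timp1, Mmp8 and Mmp19 cross 0.

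Per kb of transcript, the scale on which genes can be set side by side, Plaur and Mmp9 led in both groups, at 688.8 ± 169 and 550.3 ± 48.1 CPM per kb in Sms-OE and 454.7 ± 2.24 and 422.0 ± 45.9 in controls (SD, n = 3). Their libraries overlapped within each group, so their order is not resolved. Mmp12 came next, at 79.5 ± 28.7 in Sms-OE and 148.2 ± 6.54 in controls. Plau ranked 4 in the controls, at 33.8 ± 3.03 CPM per kb, with Mmp14 and Mmp13 at 33.8 ± 4.20 and 32.0 ± 7.22, and these neighbours overlapped. In Sms-OE Mmp14 ranked 4 at 49.4 ± 7.90 CPM per kb, overlapping with Mmp12 above it, and Plau ranked 7 at 17.6 ± 2.14, overlapping with Mmp8 above it and Timp2 below it. The lowest pair was Timp1 and Mmp19, at 7.66 ± 2.90 and 7.29 ± 1.45 in Sms-OE and 7.46 ± 1.06 and 7.63 ± 0.275 CPM per kb in controls. The ratio of Mmp9 to Timp1 was 66.0, 50.1 and 132.4 in Sms-OE and 68.2, 62.4 and 42.8 in controls, and that of Mmp14 to Timp2 was 2.89, 2.54 and 4.08 in Sms-OE and 3.15, 2.85 and 2.09 in controls. Both ratios overlapped between the groups.

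**Figure D3:**
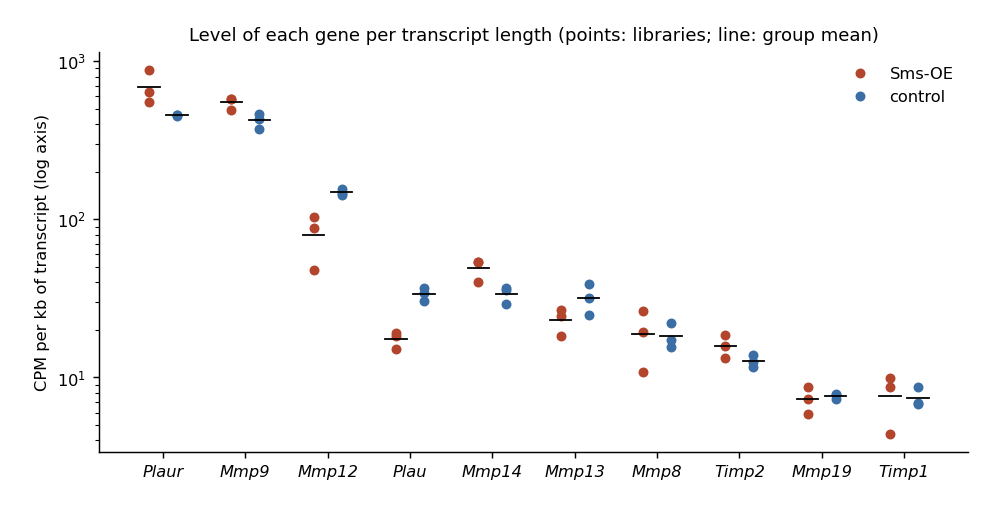
CPM per kb of the principal transcript (log axis) of each gene, ordered by the control mean, with a point for each library and a line at each group mean, Sms-OE left and control right. Plaur and Mmp9 lie above the other genes in both groups, and Timp1 and Mmp19 lie lowest.

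The members also differed in how closely replicates kept together. Among the Sms-OE libraries, replicate 3 had the lowest value for 7 of the 10 members (Mmp8, Mmp12, Mmp13, Mmp19, Timp1, Timp2 and Plau), and for 6 of these it was the lowest of all 6 libraries. The exception was Timp2, which was lowest in control replicate 1. How often Sms-OE replicate 3 was lowest over all tested genes was not counted, so these counts may not be particular to the members. The coefficient of variation in Sms-OE ran up to 41.1% (Mmp8) and down to 8.75% (Mmp9), and in controls it was 22.6% for Mmp13 and 0.493% for Plaur.

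Mmp13, Mmp12 and Mmp8 belong to a cluster of 10 metalloprotease genes on chromosome 9, which extends from 7272514 to 7699585 in GRCm38. From Mmp13 the order is Mmp12, Mmp1b, Mmp3, Mmp1a, Mmp10, Mmp8, Mmp27, Mmp20 and Mmp7. Of these, 5 genes passed the filter on low counts: Mmp12 was lower, Mmp27 and Mmp7 were higher, and Mmp13 and Mmp8 did not pass the test. Mmp27, next to Mmp8, was at 2.88, 5.06 and 2.24 CPM in Sms-OE, against 1.39, 1.00 and 1.25 CPM in controls (log2 1.48 ± 0.34 SE, adjusted p = 0.0109 by edgeR, 0.0529 without control replicate 2 and 0.0949 without both haemoglobin-rich libraries). Mmp7, matrilysin, had 49, 39 and 29 counts in Sms-OE and 0 in each control library. Against a floor of 3 counts per control library its mean of 0.758 CPM was at least 12.1-fold higher. Mmp7 passed the filter on low counts only through the Sms-OE libraries, so its call adds nothing to these values. Mmp1a and Mmp20 were at 0 in all libraries. Mmp12 overlaps Mmp1b on the opposite strand by 1261 bases, but Mmp1b held at most 17 counts in a library, against 8868 or more for Mmp12.

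**Figure D4:**
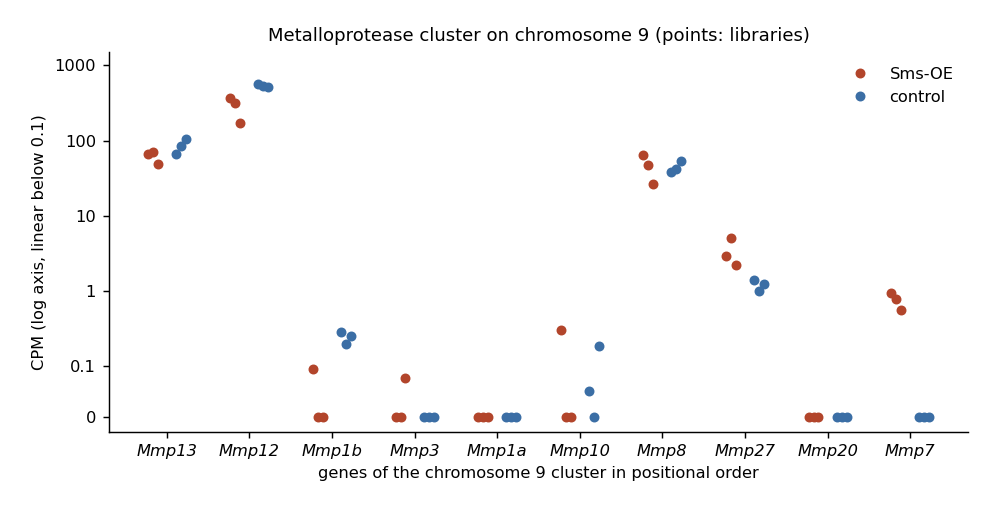
CPM (log axis, linear below 0.1) of the 10 metalloprotease genes of the chromosome 9 cluster in their order along the chromosome, with a point for each library, Sms-OE left and control right. Mmp12, Mmp13 and Mmp8 hold nearly all of the counts; Mmp12 is lower in Sms-OE, and Mmp7 is at 0 in the controls.

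Related genes of the same pathways were counted in 8 lists of 102 genes, of which 89 passed the filter. Of these 24 were higher (27.0%, against 12.5% of all tested genes) and 7 were lower (7.87%, against 14.3%), with a median log2 fold change of 0.35, also with Mmp7 at its bound. Mmp7 is among those counted as higher, and Cpb2, which passed the filter only through the controls, is among those counted as lower. The number higher was 12 without control replicate 2, and 12 with offsets for transcript length and GC content. Without both haemoglobin-rich libraries 11 were higher and 4 lower.

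Of 17 other metalloproteases, 9 were tested, 3 were higher (Mmp7, Mmp27 and Mmp25) and none lower (1 lower without Sms-OE replicate 1), with a median log2 fold change of 0.96. Mmp25, a membrane-anchored metalloprotease of neutrophils, was at 224.9, 307.7 and 312.2 CPM in Sms-OE, against 169.0, 231.7 and 216.5 CPM in controls, and the groups overlapped (log2 0.45 ± 0.15 SE, adjusted p = 0.0482 by edgeR). Its call was lost in 10 of 19 alternatives. Without control replicate 2 only 1 gene of the list was higher, and the same held without both haemoglobin-rich libraries. Of 4 other inhibitors none of the 3 tested passed: Timp3 gave 0.20 ± 0.18 and Reck, a membrane-anchored inhibitor, 0.70 ± 0.30 (log2 ± SE).

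Plasminogen and other plasma proteins of the system were lower. Plg, the plasmin precursor, was at 2.22, 1.49 and 2.22 CPM in Sms-OE, against 8.11, 14.5 and 16.3 CPM in controls (log2 -2.71 ± 0.29 SE, adjusted p = 0.000322 by edgeR). F12 and Klkb1, the genes of coagulation factor XII and plasma kallikrein, were also lower, so that 3 of 4 genes in the list fell and none rose (1 fell without control replicate 3, and 1 without both haemoglobin-rich libraries). Plat, the gene of tissue plasminogen activator, was at 8.56 ± 2.095 CPM in Sms-OE and 8.95 ± 1.47 CPM in controls (SD, n = 3). Among 5 inhibitors tested, Serpinf2, which inactivates plasmin, was 3.67-fold lower. Cpb2, which protects fibrin, was also called lower, and held only 4, 12 and 4 counts in Sms-OE, against 65, 54 and 112 in controls. It passed the filter on low counts only through the controls, so its call adds nothing to these counts. The size of its fold is uncertain (log2 -3.46 ± 0.61 SE). Vtn, vitronectin, which binds the urokinase receptor, was 9.85-fold lower (2.83 ± 0.964 CPM in Sms-OE and 27.9 ± 8.41 CPM in controls, SD, n = 3). The liver makes these 6 plasma proteins. Of 14 hepatocyte and hepatoma markers 9 were lower in the same comparison and none higher, with a summed level of 497.3 to 750.8 CPM in Sms-OE and 882.3 to 1101 CPM in controls; Alb, Trf and Afp held the most counts among them, of which Alb was lower (193.1 ± 44.8 CPM in Sms-OE and 395.0 ± 60.8 CPM in controls, SD, n = 3) while Trf and Afp did not pass. Hnf4a, Krt8 and Krt18 did not pass either (log2 fold changes of 0.33, 0.26 and 0.23). The part of hepatocyte and hepatoma RNA in the lower plasma protein RNAs was not tested.

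Serpinb2, an inhibitor of urokinase, was at 361.3, 886.4 and 536.1 CPM in Sms-OE, against 150.6, 283.6 and 336.4 CPM in controls, with no overlap. It did not pass the test (log2 1.21 ± 0.44 SE, adjusted p = 0.0999 by edgeR) and was named after its values were seen. In the list of plasminogen system inhibitors 1 gene was called higher without Sms-OE replicate 1, with the DESeq2 Wald test, with limma-voom, with no robust step and in both fits with the replicate number as a block.

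Of 16 surface partners of urokinase, its receptor and plasmin, 6 were higher and 1, Vtn, was lower. Igf2r, a receptor that binds the urokinase receptor and plasminogen, was at 104.0 ± 7.64 CPM in Sms-OE and 60.4 ± 2.48 CPM in controls (SD, n = 3; log2 0.78 ± 0.087 SE, adjusted p = 0.000402 by edgeR). Itgam, the integrin chain that pairs with the receptor on myeloid cells, was 1.52-fold higher, and Fpr2, a formyl peptide receptor through which receptor fragments signal, 1.48-fold higher. Lrp1, an endocytic receptor that clears protease complexes from the cell surface, was 1.61-fold higher and was named after its values were seen (400.2 ± 55.3 CPM in Sms-OE and 248.8 ± 35.1 CPM in controls). Of 8 genes tested for activation and docking of metalloprotease precursors, 1 passed: Furin, the protease that activates the Mmp14 precursor, was 1.44-fold higher (356.3 ± 40.0 CPM in Sms-OE and 247.9 ± 20.7 CPM in controls, adjusted p = 0.00695 by edgeR). Its call was lost with the offsets for length and GC (adjusted p = 0.124) and without both haemoglobin-rich libraries (adjusted p = 0.160). In this list 2 genes were higher with the length and GC offsets, 3 with those offsets and the replicate block and 2 with scaling to library size, and 1 was lower without Sms-OE replicate 2.

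Of 18 ADAM and ADAMTS genes tested, 4 were higher (Adam8, Adam15, Adamts7 and Adamtsl4) and none lower, but no more than 1 was called on leaving out any library other than Sms-OE replicate 1, which gave 2. None was called with the length and GC offsets or without both haemoglobin-rich libraries. Adam8, a membrane protease of myeloid cells, was 1.45-fold higher (1415 ± 246 CPM in Sms-OE and 974.8 ± 172 CPM in controls, adjusted p = 0.0313 by edgeR).

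Of 26 genes of matrix proteins on which these enzymes act, 10 were higher and 1 lower, with a median log2 fold change of 0.56. Lamc1, a laminin chain, was 2.06-fold higher, Spp1, osteopontin, 2.40-fold and Dcn, decorin, 1.88-fold higher, while Col18a1, a basement membrane collagen, was 1.79-fold lower. The number higher was 4 without control replicate 2, 5 without Sms-OE replicate 2, 6 without control replicate 3, 4 with the length and GC offsets and 4 without both haemoglobin-rich libraries. The call of Col18a1 was lost in the last of these fits (adjusted p = 0.0784). Dcn is also on the fibroblast list given above, whose part in these values was not tested. Spp1 was at 266.7, 242.2 and 131.7 CPM in Sms-OE, against 90.4, 87.8 and 88.4 CPM in controls, and passed under all 19 alternatives, as did Lamc1 and Dcn.

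**Figure D5:**
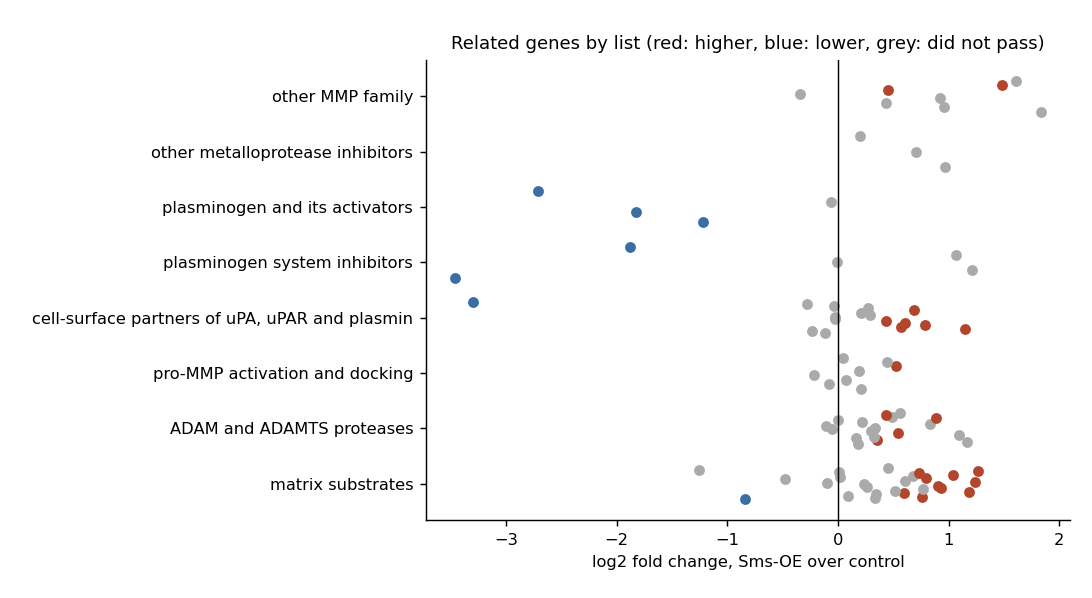
Log2 fold change, Sms-OE over control, of each tested gene in 8 related lists (Mmp7, at 0 in the controls, is not drawn). Lower genes are mostly the plasma proteins Plg, F12, Klkb1, Serpinf2, Cpb2 and Vtn. Higher genes are mostly surface partners and matrix proteins, with others among the ADAM and ADAMTS genes and the other metalloproteases, and Furin.

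Across the 6 libraries, likeness to a member was measured as the root mean square difference of log2 CPM, each gene centred on its own mean, over 10302 other genes with a mean of at least 5 CPM. Closest to Plaur were Cdkn1a, a cell cycle inhibitor (difference 0.033), and Tiparp (0.048). Cdkn1a was at 664.0 ± 141 CPM in Sms-OE and 449.7 ± 6.99 CPM in controls (SD, n = 3). Closest to Plau were Fam136a (0.071) and Cd200r1, an inhibitory receptor of myeloid cells (0.088). Closest to Mmp9 were Pgm2l1 (0.018) and Piezo1, a mechanically gated ion channel (0.039), and closest to Mmp14 were Osbpl3 (0.053) and Kremen1 (0.054). Mmp12 had no gene nearer than Haus5 (0.105), and Mmp8 none nearer than Flrt2 (0.141). Closest to Mmp13 were Magoh (0.039) and Mrpl33 (0.055), to Timp2 Slc39a7 (0.059), to Mmp19 Etfrf1 (0.058) and to Timp1 Ankrd22 (0.085). With 6 libraries and so many genes, close profiles are found for most members, and these values are a description.

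Outside the chromosome 9 cluster the members lie apart from each other. In GRCm38, with GENCODE M21, Mmp13 extends from 7272514 to 7283331, Mmp12 from 7344381 to 7369499 and Mmp8 from 7558456 to 7568485 on chromosome 9. Mmp9 lies on chromosome 2 from 164940780 to 164955850, Plaur on chromosome 7 from 24462484 to 24475968 and Mmp19 on chromosome 10 from 128790910 to 128800824. Plau (20836660 to 20843385) and Mmp14 (54431612 to 54445364) are both on chromosome 14 but far apart. Timp2, on chromosome 11 from 118301069 to 118355740, is the member on the minus strand. Timp1 (X, 20870166 to 20874735) lies inside Syn1, which has the opposite strand and held 244 to 345 counts in Sms-OE and 239 to 340 in controls. Timp1 itself held 200 to 434 counts in Sms-OE and 342 to 368 in controls, so some of the Timp1 value is uncertain if strand was not used in counting. Timp2 contains Cep295nl on its own strand (0.436 to 0.984 CPM in Sms-OE and 0.143 to 0.267 CPM in controls). Mmp19 overlaps Gm47093 and the end of Tmem198b on the opposite strand, which held up to 0.174 and 7.34 CPM. In the deposited table the members are listed as ENSMUSG00000005800 (Mmp8), ENSMUSG00000017737 (Mmp9), ENSMUSG00000049723 (Mmp12), ENSMUSG00000050578 (Mmp13), ENSMUSG00000000957 (Mmp14), ENSMUSG00000025355 (Mmp19), ENSMUSG00000001131 (Timp1), ENSMUSG00000017466 (Timp2), ENSMUSG00000021822 (Plau), ENSMUSG00000046223 (Plaur).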

How the data were processed

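RNA of F4/80+ cells was sequenced from poly(A)-selected libraries marked for strand with dUTP, per the labels' protocols. The table holds estimated counts per Ensembl gene, deposited without normalization as whole numbers. The submitters' processing notes name HISAT2 2.2.1, StringTie 2.1.6, cutadapt 1.9, FastQC 0.11.9 and DESeq2, with no role. Which genome build, annotation and strand setting the counting used is not given in the sources used here. In every library more genes held 4 counts than 3 or 5 (1008 against 580 and 352 in control replicate 1), so the counting error is uncertain. Symbols came from GENCODE M21 by identifier for 55141 rows; 260 had none (0.0125% of counts at most). The same annotation, on GRCm38, gave the coordinates.

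The members and lists were chosen with earlier results of these data known. The fit was edgeR 4.0.16 (R 4.3.3): filterByExpr, TMM factors, robust glmQLFit and glmQLFTest over 18277 genes, and log2 fold changes are Sms-OE minus control; the SE came from the F statistic. The steps were tested on simulated counts. CPM per kb divided by the longest APPRIS principal transcript. Named related genes were up to 4 per list among those called, in order of p, or the pair of highest CPM where none was called. No libraries of a group were alike: at most 3.65% of genes were equal. Alternatives were other scalings, filters and tests (DESeq2 1.42.0, limma 3.58.1 voom), the replicate block, length and GC offsets, each library left out, and, added after seeing the data, both haemoglobin-rich libraries left out.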

Additional observations from a re-analysis of the deposited data

How the results depend on the processing

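The members kept their direction and their side of the threshold in 155 of the results over 19 alternatives, lost a call in 16 and gained one in 7; Plau was called in all 19. With no low-count filter 1 member was lower. With the length and GC offsets 12 related genes were higher. On leaving out each library, the genes called numbered 3050 to 4488 (1366 to 2015 higher and 1684 to 2473 lower), the members 0 to 3 higher and 1 to 2 lower, and the related genes 12 to 21 higher and 5 to 8 lower; no member was called higher without control replicate 3. Without both haemoglobin-rich libraries 1384 genes were called (690 higher and 694 lower), with 11 related genes higher and 4 lower; the single Sms-OE library left is assumed to vary like the controls. Log2 fold changes near 0 changed sign, and the cause was not tested. For Mmp8 they were -0.037 (limma-voom), -0.028 (replicate block), and -0.283, -0.073 and -0.021 without Sms-OE replicate 1, control replicate 1 and control replicate 2; over the libraries left out they ran from -0.283 to 0.314. For Timp1 they were -0.052 (limma-voom), -0.021 (replicate block), -0.072 and -0.196 without Sms-OE replicate 1 or 2, and -0.033 and -0.025 without control replicate 1 or 2, and ran from -0.196 to 0.315. Mmp19 gave 0.065 without Sms-OE replicate 3 and ran from -0.227 to 0.065. With the replicate block 4532 genes were called, and the members stayed at 3 higher and 2 lower. Deviations of same-numbered samples had r = 0.065, 0.020 and -0.008 across genes, against -0.066 to 0.044 for samples of unlike number. Values near 0 over all genes cannot show whether same-numbered samples were handled together. The low level of Timp1 limits what its values can show.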
